A study of Saccharomyces cerevisiae BY4741 with 40 samples.

Results

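The flocculin genes *FLO1*, *FLO5*, *FLO9*, *FLO10* and *FLO11* were examined in 2 tables of transcription start site clusters (TSSCs) from budding yeast. Taken were all TSSCs that the tables assign to 1 of these 5 genes, and all TSSCs of any class and on either strand within 4000 nt upstream of the *FLO11* ORF. This gave 13 of the 17812 TSSCs of the *RRP6* experiment and 23 of the 21707 TSSCs of the *SET2* experiment. A TSSC is a group of closely spaced capped 5′-ends, sequenced from poly(A)+ RNA after removal of the cap with tobacco acid pyrophosphatase.

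All strains were BY4741 with a deletion of *CAN1*, grown in rich medium. In the *RRP6* experiment the wild-type carried only the *CAN1* deletion, and the mutants lacked *UPF1* (upf1_delta::KANMX6), *RRP6* (rrp6_delta::hphMX6) or both. The *SET2* experiment compared the wild-type with strains that lacked *UPF1*, *SET2* (set2_delta::KANMX6) or both (set2_delta::KANMX6 with upf1_delta::HIS3MX6). Each of the 4 genotypes of an experiment had 3 libraries, but the tables give 1 normalised value per genotype, so the spread between libraries cannot be read from them and genotypes were compared here without a test. Ratios are log2 of (value + 1) over (value + 1), and a TSSC is called higher or lower where the values differ by more than 2-fold on this scale.

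Flocculins are cell wall proteins with which yeast cells stick to each other or to surfaces. Flo1, Flo5, Flo9 and Flo10 bind mannose chains on neighbouring cells, and Flo11 is needed for pseudohyphal growth, invasion of agar and biofilms. *FLO1*, *FLO5*, *FLO9* and *FLO10* lie close to chromosome ends. The flocculin genes are mostly silent in laboratory strains of the S288C lineage, which carry a nonsense mutation in *FLO8*, the gene of a main activator. Upf1 is an RNA helicase of nonsense-mediated mRNA decay (NMD), Rrp6 is a nuclease of the nuclear exosome, and Set2 methylates histone H3 along transcribed genes.

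Of the 13 TSSCs in the *RRP6* experiment, 4 were of the mRNA class (overlapping the 5′-UTR of a gene in sense orientation), 4 were sense internal (class B, inside the ORF or 3′ region), 3 were antisense (class A) and 2 were intergenic. Of the 23 in the *SET2* experiment, 4 were of the mRNA class, 11 were sense internal, 6 were antisense and 2 were intergenic. *FLO9* had 4 TSSCs in each experiment, *FLO5* had 3 and 4, *FLO1* had 1 and 5, and *FLO10* had 2 and 7. The tables used here held none assigned to *FLO11*, and the upstream region of this gene had 3 in each experiment. The mRNA class TSSCs belonged to *FLO5*, *FLO10* and *MRS1*, the neighbour of *FLO11*. None belonged to *FLO1*, *FLO9* or *FLO11*, so these data describe transcripts that begin elsewhere than at the annotated 5′-ends of these 3 genes.

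Values of all genotypes are given for the 9 TSSCs of the *RRP6* experiment and the 14 of the *SET2* experiment that reached 10 in at least 1 genotype. The remaining 4 and 9 had values of at most 8 and 9. The comparison of *upf1∆* with wild-type was made in both experiments and served as a guide to the error of a ratio. Over TSSCs found in both, the difference between the 2 log2 ratios had an SD of 0.77 for mean values below 3 (1303 pairs), 0.64 from 3 to 10 (2655 pairs), 0.42 from 10 to 30 (2781 pairs), 0.37 from 30 to 100 (2727 pairs) and 0.24 above (3805 pairs). The contrasts with *rrp6∆* and *set2∆* have no such repeat. Beyond this, the *FLO1*, *FLO5* and *FLO9* ORFs are near-copies in their 3′ parts. Over their last 700 nt, 96.7% of aligned bases were identical between *FLO1* and *FLO5*, 96.9% between *FLO1* and *FLO9*, and 97.9% between *FLO5* and *FLO9*, against 70.2 to 71.9% with *FLO10*. These shares leave out gaps, which took 108, 54 and 54 positions in the first 3 pairs. Over the first 800 nt the same pairs were less alike, at 89.1%, 84.8% and 86.9%. For 7 of the 13 TSSCs and 6 of the 23, the 50 nt downstream of at least 1 position occurred exactly a second time in the genome, so reads there could have been placed at either copy. None of these TSSCs was in *FLO10* or upstream of *FLO11*.

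The main sense internal TSSCs of *FLO9*, *FLO5* and *FLO1* lay in the same part of the ORF, between 578 and 763 nt from its last base. Their sequences are shown because this stretch is shared and holds a short repeat. The windows below are the *FLO9* TSSC with 20 nt on each side and the parts of the other 3 ORFs that align with it, 5′ to 3′ on the sense strand of R64, with capitals for positions inside a sense internal TSSC of the *SET2* experiment.
FLO9, chrI:24693-24775, minus strand: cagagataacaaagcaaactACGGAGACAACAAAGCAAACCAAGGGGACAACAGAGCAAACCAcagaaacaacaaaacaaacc
FLO5, chrVIII:527871-527953, plus strand: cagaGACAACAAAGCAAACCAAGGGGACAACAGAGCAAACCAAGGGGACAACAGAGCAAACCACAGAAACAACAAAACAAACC
FLO1, chrI:207231-207296, plus strand: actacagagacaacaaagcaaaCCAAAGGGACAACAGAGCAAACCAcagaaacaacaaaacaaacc
FLO10, chrXI:649099-649166, plus strand: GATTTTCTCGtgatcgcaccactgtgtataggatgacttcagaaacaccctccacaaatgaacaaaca

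The *FLO5* window matched *FLO9* at 78 of 83 bases with no gap. The *FLO1* window matched at 64 bases, with 2 mismatches and 17 gap positions. The *FLO10* window matched at only 35, with 33 mismatches and 15 gap positions. The unit ACAACANAGCAAACCA, searched on both strands, occurred 2 times in the sense strand of *FLO9*, 2 times in that of *FLO1* and 3 times in that of *FLO5*, in steps of 21 nt, and was not found in *FLO10* or *FLO11*. It was present in 4 of 6002 annotated ORFs (0.0666%), and the only other ORF was YAL064W-B, on the antisense strand. The unit was read from the first 2 repeats of the *FLO5* window itself. Its presence in *FLO5* was therefore given in advance, and its presence in near-copies of *FLO5* was likely from the start. All units lay between 701 and 776 nt from the end of the ORF, within or next to the TSSCs.

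In *FLO9* (YAL063C, chromosome I, 24000 to 27968, minus strand) the sense internal TSSC at 24713 to 24755, with identical borders in both tables, had 37 normalised reads in wild-type cells, 199 without Upf1, 5 without Rrp6 and 13 without both. The other experiment gave 36 in wild-type, 198 in *upf1∆*, 135 in *set2∆* and 462 in *upf1∆set2∆*. The wild-type and *upf1∆* values thus repeated closely, with log2 ratios of 2.40 and 2.43. The TSSC was high without Upf1 or Set2, highest without both, and low in both strains that lacked Rrp6.

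The *FLO5* (YHR211W, chromosome VIII, 525392 to 528619, plus strand) sense internal TSSC spanned 527891 to 528010 in the *RRP6* experiment, with 35 in wild-type cells, 156 without Upf1, 2 without Rrp6 and 14 without both. For the *SET2* experiment it spanned 527875 to 528041, with 31 in wild-type, 152 in *upf1∆*, 261 in *set2∆* and 793 in *upf1∆set2∆*. The order of genotypes was that of *FLO9*, except that *set2∆* exceeded *upf1∆*. The *upf1∆* ratios were 2.12 and 2.26, a difference within the SD of 0.37 at this level. With 793, it was number 15 from the top of the 7620 sense internal TSSCs in *upf1∆set2∆*, and the *FLO9* TSSC, with 462, was number 52. The median of this class was 10.

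Both *FLO9* and *FLO5* TSSCs stood low in *rrp6∆*, by -2.66 and -3.58 on the log2 scale. Of the 13 TSSCs, 3 were lower in *rrp6∆* and 4 were higher, against 3.13% and 24.7% of all TSSCs. All 3 that were lower were sense internal, a class in which 7.59% of TSSCs were lower. The third, at 24368 in *FLO9*, was 1 nt wide and had 2 in wild-type and 0 in *rrp6∆*. With a pseudocount of 5 the number that were lower was 2. Removing Upf1 from *rrp6∆* cells raised the main *FLO5* and *FLO9* TSSCs only to 14 and 13. Against *upf1∆*, *upf1∆rrp6∆* was lower by -3.39 in *FLO5* and -3.84 in *FLO9*. In this comparison 3 of 13 TSSCs were lower and 3 higher, against 3.96% and 28.6% of all TSSCs. The 3 lower ones were again sense internal, a class in which 10.3% were lower. With the single effects added, the double mutant would have had 123 in *FLO5* and 167 in *FLO9*, so the measured values differed from the sum by -3.05 and -3.58 on the log2 scale.

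These 2 TSSCs were not measured independently. Of the 43 positions of the *FLO9* TSSC, 30 had an exact second copy over 50 nt, all in the *FLO5* TSSC, and 34 of the 120 to 167 positions of *FLO5* had one in *FLO9*. Without TSSCs with second copies, 6 were left, of which none was lower in *rrp6∆* than in wild-type or in *upf1∆rrp6∆* than in *upf1∆* or wild-type, and 1 was higher in *rrp6∆*. How the reads divided between both genes was not tested.

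*FLO1* (YAR050W, chromosome I, 203403 to 208016, plus strand) had its main sense internal TSSC at 207253 to 207276 in the *SET2* experiment, with 3 in wild-type, 18 in *upf1∆*, 19 in *set2∆* and 73 in *upf1∆set2∆*. No position of it had a second copy over 50 nt, and 4 of 24 had one over 38 nt. Its *upf1∆* ratio, 2.25, lay close to those of *FLO9* and *FLO5*, 2.43 and 2.26, at a far lower level. For *set2∆* its ratio of 2.32 lay between 1.88 in *FLO9* and 3.03 in *FLO5*. For the double mutant, 4.21 lay between 3.65 and 4.63. With a pseudocount of 5 the *FLO1* ratios fell to 1.52, 1.58 and 3.29, below those of both other genes. A further TSSC at 207612 to 207660 carried 2 in wild-type, 11 in *upf1∆*, 8 in *set2∆* and 8 in *upf1∆set2∆*, so here the double mutant stood no higher than *upf1∆*.

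**Figure D1:**
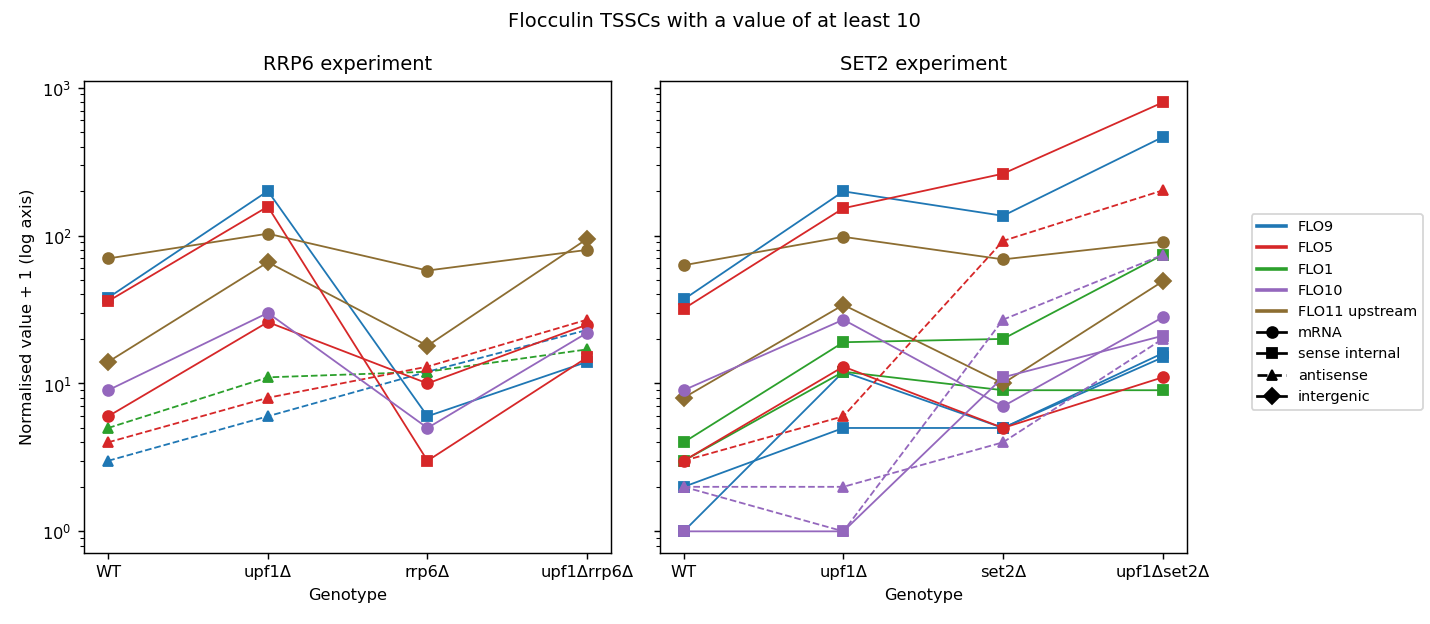
Normalised value plus 1 (log axis) of the 9 and 14 flocculin TSSCs that reached 10, by genotype, with colour for the gene and symbol for the class; lines join the values of 1 TSSC. The sense internal squares of *FLO9* and *FLO5* go from 37 and 35 in wild-type to 199 and 156 in *upf1∆* and 5 and 2 in *rrp6∆*, and reach 462 and 793 in *upf1∆set2∆*.

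The smaller sense internal TSSCs of *FLO9* lay further upstream. The one at 24886 to 24956 in the *SET2* experiment was listed at 0 in wild-type, with 11 in *upf1∆*, 4 in *set2∆* and 14 in *upf1∆set2∆*. Another at 25071 to 25122 carried 1 in wild-type, 4 in *upf1∆*, 4 in *set2∆* and 15 in the double mutant. Both were highest without Upf1 and Set2, at levels where the guide to the error is 0.64.

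*FLO10* (YKR102W, chromosome XI, 646356 to 649865, plus strand) had no sense internal TSSC in the *RRP6* experiment. Strains of the *SET2* experiment had one, at 648962 to 649108, which was listed at 0 in wild-type and in *upf1∆*, with 10 in *set2∆* and 20 in *upf1∆set2∆*. A second, at 649200 to 649204, was also listed at 0 in wild-type and *upf1∆* and had 5 in both strains without Set2. For comparison, *FLO5* and *FLO9* had 152 and 198 in *upf1∆* cells. A value listed at 0 is a rounded normalised value and does not show that a start is absent.

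What a ribosome would first meet after these starts also differed. After the last base of the *FLO9* and *FLO1* TSSCs the first ATG came at 56 nt in both genes and out of frame with the ORF, and it opened the same reading frame of 2 codons, shown with the start and stop codons in capitals.
FLO9, chrI:24649-24657, minus strand: ATGctcTAA
FLO1, chrI:207332-207340, plus strand: ATGctcTAA

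In *FLO5* the first ATG after the TSSC was out of frame as well and opened 43 codons. The first ATG in frame came 330 nt after the TSSC in *FLO9* and in *FLO1*, leaving 127 and 136 codons of the flocculin. In *FLO5* it came 253 nt after the TSSC of the *RRP6* experiment and 222 nt after that of the *SET2* experiment, leaving 118 codons. In *FLO10* the first ATG came 23 nt after the TSSC at 648962 to 649108 and was in frame, with 244 codons left to the stop codon. This TSSC also held 3 ATGs inside it, and that of *FLO5* held 1. The other *FLO10* TSSC, at 649200 to 649204, had an out-of-frame first ATG that opened 17 codons, and both were listed at 0 in *upf1∆*.

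Antisense TSSCs lay close to the sense internal ones. In *FLO5* the antisense TSSC at 527595 to 527808 lay 66 nt upstream of the sense TSSC and ran in the other direction. It had 2 in wild-type, 5 in *upf1∆*, 91 in *set2∆* and 201 in *upf1∆set2∆*. Its *set2∆* ratio was 4.94, against a median of 1 over all 2505 antisense TSSCs, and its level in the double mutant was number 14 of these. Among the 417 antisense TSSCs with a mean of at least 10, the median ratio was 1.70 and this TSSC was number 10 from the top. Of its 214 positions, 48 had a second copy, all of them in YAL064W-B, with 36 also in *FLO1* and 17 in *FLO9*.

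The *FLO10* antisense TSSC at 648954 to 649048 overlapped the sense one. It had 1 in wild-type, 0 in *upf1∆*, 26 in *set2∆* and 73 in *upf1∆set2∆*, and no position had a second copy. Near the 5′ part of this ORF the antisense TSSC at 646931 to 646975 carried 1 in wild-type, 1 in *upf1∆*, 3 in *set2∆* and 19 in *upf1∆set2∆*, against a sum of single effects of 3. The other antisense TSSCs of *FLO10*, at 648394 and 648830, were 1 nt wide and listed at 0 except in the double mutant, which had 1 and 4.

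In *FLO9* and *FLO1* the antisense 5′-ends at the same place carried the name of an XUT, a class of antisense and intergenic RNAs defined by sensitivity to the nuclease Xrn1, and so were not among the TSSCs of the rule. XUT_1F-12 in *FLO9* began 75 nt upstream of the sense TSSC in the *RRP6* experiment, with 39 in wild-type cells, 140 without Upf1, 5 without Rrp6 and 29 without both. In the *SET2* experiment it had 16 in wild-type, 58 in *upf1∆*, 48 in *set2∆* and 186 in the double mutant, the same order of genotypes as the sense TSSC opposite it. XUT_1R-103 in *FLO1* had 2 TSSCs in the *SET2* experiment. The nearer, 80 nt upstream of the sense one, had 0 in wild-type, 1 in *upf1∆*, 5 in *set2∆* and 12 in the double mutant. The larger, 199 nt upstream, had 0, 2, 6 and 23. Second copies were not counted for these XUT TSSCs.

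**Figure D2:**
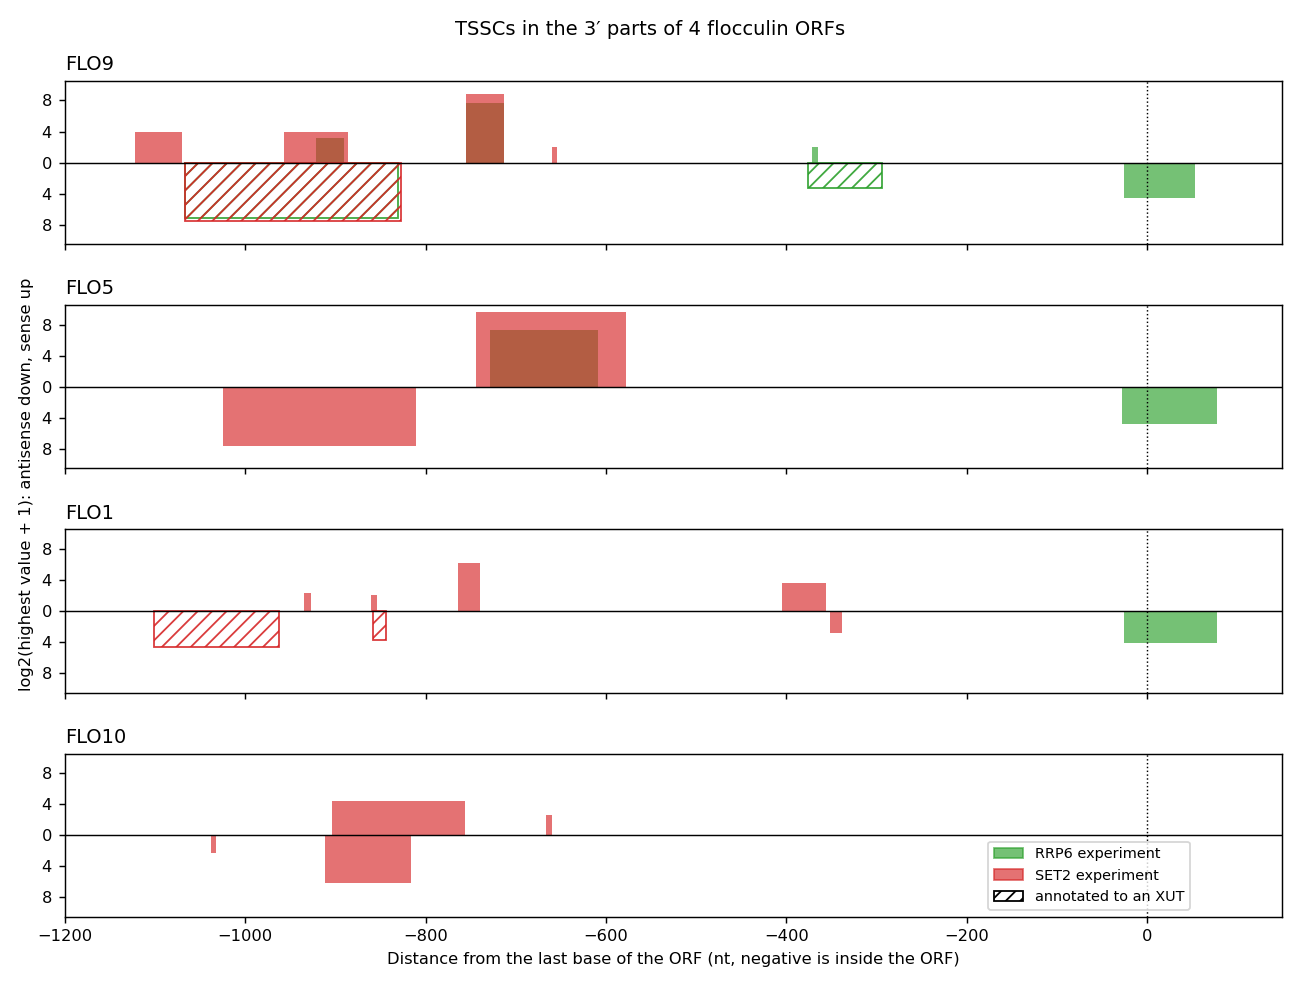
Positions of TSSCs in the last part of 4 flocculin ORFs, as distance from the last base of the ORF in nt (dotted line at 0); bar width is the TSSC (at least a thin line) and bar height is log2 of its highest value plus 1, sense up and antisense down, green for the *RRP6* and red for the *SET2* experiment, hatched where named as an XUT. Sense TSSCs between 578 and 763 nt from the end face antisense TSSCs just upstream in *FLO9*, *FLO5* and *FLO1*, the *FLO10* sense TSSC at 757 to 903 nt overlaps one, and antisense TSSCs cross the last base of 3 of the ORFs in the *RRP6* experiment.

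At the 3′-ends of the ORFs the *RRP6* experiment had 3 antisense TSSCs, which crossed the last base of *FLO9*, *FLO1* and *FLO5*. The *FLO9* one, at 23947 to 24025, had 2 in wild-type cells, 5 without Upf1, 11 without Rrp6 and 22 without both. *FLO1* had 4, 10, 11 and 16 in the same genotypes at 207991 to 208093. For *FLO5*, at 528592 to 528696, the values were 3, 7, 12 and 26. All 3 were higher in *rrp6∆*, with ratios of 2.00, 1.26 and 1.70, against a median of 1 over all 1750 antisense TSSCs, of which 46.3% were higher. Among the 490 antisense TSSCs with a mean of at least 10, the median was 1.87 and 66.9% were higher. The *FLO1* and *FLO5* ratios lay below that median. The main sense internal TSSCs of *FLO9* and *FLO5* were lower in the same strain, and *FLO1* had none in this experiment. Of their positions, 79 of 79 in *FLO9*, 73 of 103 in *FLO1* and 105 of 105 in *FLO5* had a second copy in another of these genes, so over most of their length the 3 cannot be told apart, and they are not independent, although each is counted among the 13. In the *SET2* experiment *FLO1* had 1 antisense TSSC, at 207665 to 207677, with at most 6.

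*FLO5* and *FLO10* each had an mRNA class TSSC, but far from the ORF. The *FLO5* TSSC, 523035 to 523142 in the *RRP6* experiment, began 2357 nt upstream of the ATG. It had 5 in wild-type cells, 25 without Upf1, 9 without Rrp6 and 24 without both. Its main part in the *SET2* experiment, 523035 to 523057, carried 2 in wild-type, 12 in *upf1∆*, 4 in *set2∆* and 10 in *upf1∆set2∆*, and a single position at 523108 had at most 3. Both *upf1∆* ratios came to 2.12, and the values of both strains without Upf1 lay above those of both strains with it in either experiment.

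The *FLO10* TSSC, 642954 to 642994 in both tables, began 3402 nt upstream of the ATG. It had 8 in wild-type cells, 29 without Upf1, 4 without Rrp6 and 21 without both. In the *SET2* experiment the values were 8, 26, 6 and 27 for wild-type, *upf1∆*, *set2∆* and *upf1∆set2∆*. The *upf1∆* ratios, 1.74 and 1.58, differed by 0.15, within the SD of 0.42 at this level, and neither *rrp6∆* nor *set2∆* passed the 2-fold limit. A single position at 645679, which is 677 nt upstream of the ATG, had 1 in *upf1∆rrp6∆* and was otherwise listed at 0. Of 3027 genes with an mRNA TSSC wholly upstream of the ATG in the *SET2* experiment, *FLO10* and *FLO5* had the nearest one farthest away, at 3362 and 2284 nt. The median distance was 33 nt. In the *RRP6* experiment *NFT1* had the farthest, at 2565 nt, and *FLO5* followed at 2250 nt, while the single position at 645679 put *FLO10* at 677 nt.

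From the last base of the TSSC to the *FLO10* ATG lay 54 other ATGs, and between the *FLO5* TSSC at 523035 to 523057 and its ORF there were 37. The first of these opened a reading frame of 5 codons in *FLO5* and 7 codons in *FLO10*, given here with the start and stop codons in capitals. The *FLO5* frame is the first one downstream of the borders of the *SET2* experiment. The *FLO10* frame begins at the last base of the TSSC itself, 642994.
FLO5, chrVIII:523063-523080, plus strand: ATGggttccagcactTAG
FLO10, chrXI:642994-643017, plus strand: ATGgcatgtacttatactataTAA

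By distance between profiles of 8 values (log2 of value plus 1, centred within each table), over 5404 mRNA TSSCs that reached 20, the nearest to *FLO5* were those of YBR242W (distance 0.42), YJR003C (0.47) and *PET130* (0.47), against a median distance of 2.46. YBR242W had 9 in wild-type cells, 30 without Upf1, 12 without Rrp6 and 30 without both. Nearest to *FLO10* were *ALD2*, which encodes an aldehyde dehydrogenase (0.44), *MTQ1* (0.44) and *ADY4* (0.47), against a median of 2.74. *ALD2* had 20 in wild-type cells, 77 without Upf1, 14 without Rrp6 and 63 without both.

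**Figure D3:**
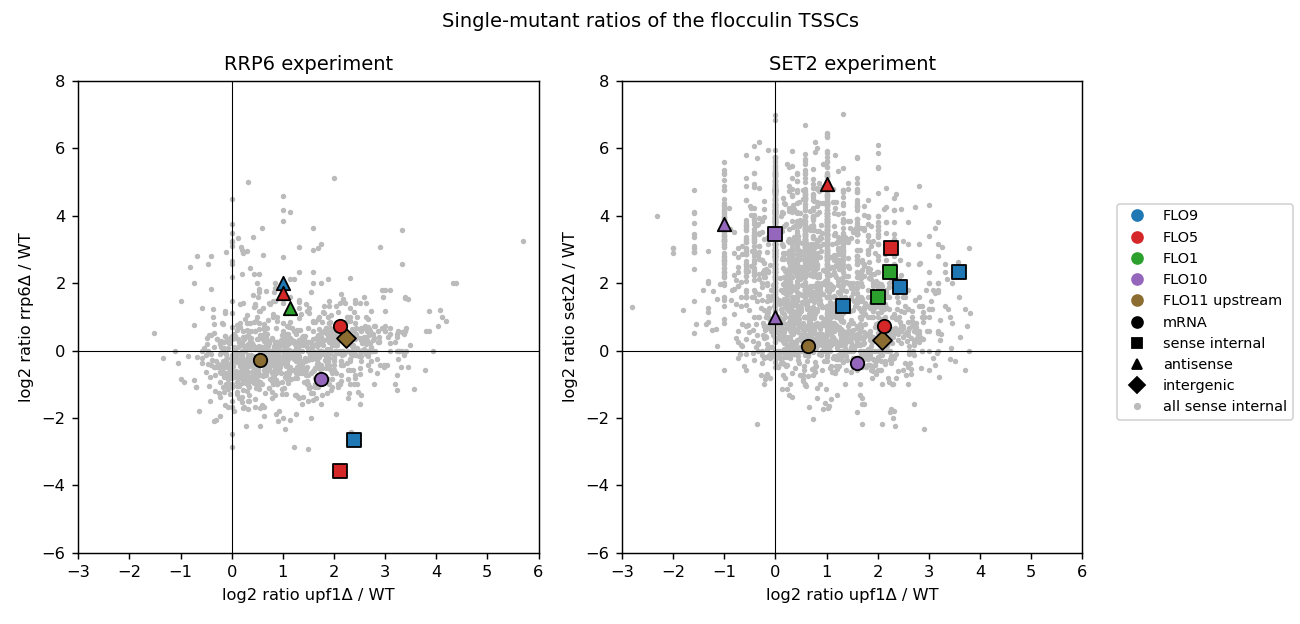
Log2 ratio of *rrp6∆* (left) or *set2∆* (right) to wild-type against that of *upf1∆* to wild-type, for the flocculin TSSCs that reached 10 (coloured, symbol by class) and for all sense internal TSSCs with a mean of at least 10 (grey). On the left *FLO9* and *FLO5* sense internal TSSCs lie at -2.66 and -3.58, among the lowest points, and on the right the *FLO5* antisense TSSC lies at 4.94.

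*FLO11* (YIR019C, chromosome IX, 389572 to 393675, minus strand) has one of the longest intergenic regions of the genome upstream. R64 annotates an ORF, YIR020C, inside this region on the *FLO11* strand. Known from earlier work are 2 non-coding RNAs in the region: *ICR1*, on the *FLO11* strand, runs across the promoter and is linked to repression of *FLO11*, and *PWR1*, on the opposite strand, is linked to repression of *ICR1*. The 5′-end of *ICR1* was the main *FLO11*-strand signal here. Its window is printed with 10 nt on each side, on the minus strand, with capitals for positions inside the TSSC of both experiments.
ICR1 start, chrIX:397023-397126, minus strand: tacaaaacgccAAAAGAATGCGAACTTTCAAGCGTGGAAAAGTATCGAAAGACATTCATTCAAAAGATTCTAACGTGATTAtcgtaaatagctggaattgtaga

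The TSSC at 397033 to 397116 crossed the annotated *ICR1* 5′-end at 397082, which lies 3407 nt from the *FLO11* ATG. It had 13 in wild-type cells, 65 without Upf1, 17 without Rrp6 and 94 without both. In the *SET2* experiment, at 397046 to 397115, it had 7 in wild-type, 33 in *upf1∆*, 9 in *set2∆* and 48 in *upf1∆set2∆*. The *upf1∆* ratios of 2.24 and 2.09 differed by 0.15, less than the SD of 0.42. The ratios of *rrp6∆* and *set2∆* to wild-type, 0.36 and 0.32, were both below 2-fold, and both double mutants were higher than *upf1∆* by 0.53, also below 2-fold. The double mutants exceeded the sum of the single effects, 69 and 35, by 0.44 on the log2 scale. It stood at number 297 of the 3011 intergenic TSSCs in *upf1∆rrp6∆*. No position of it had a second copy in the genome. The first ATG after it opened a reading frame of 2 codons.
ICR1, chrIX:397006-397014, minus strand: ATGacaTAG

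Nearest in profile to the *ICR1* start, a target added after its values were seen, were the mRNA TSSCs of *ENV7* (distance 0.26), *TEN1* (0.33) and *LST4* (0.36), against a median of 3.19. *ENV7*, a vacuolar protein kinase gene, had 13 in wild-type cells, 70 without Upf1, 19 without Rrp6 and 105 without both.

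*PWR1* (395999 to 396939) had no TSSC at its annotated 5′-end among those used here. A TSSC of 3 nt on its strand, 653 nt downstream of that end, was listed at 0 in wild-type and in *upf1∆*, with 3 in *rrp6∆* and 4 in *upf1∆rrp6∆*. It had no counterpart among the TSSCs of the *SET2* experiment. On the *FLO11* strand a TSSC at 394606 to 394631, which is 931 nt from the *FLO11* ATG and inside *ICR1*, had 1 in wild-type, 1 in *upf1∆*, 9 in *set2∆* and 6 in *upf1∆set2∆*. It lay just upstream of the annotated ORF YIR020C (394255 to 394557, minus strand). The first ATG, 49 nt after this TSSC, was that of YIR020C and opened 100 codons. These low values were the nearest *FLO11*-strand 5′-ends to the *FLO11* ORF, and over 5988 genes the median distance to the nearest sense TSSC was 147 nt.

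**Figure D4:**
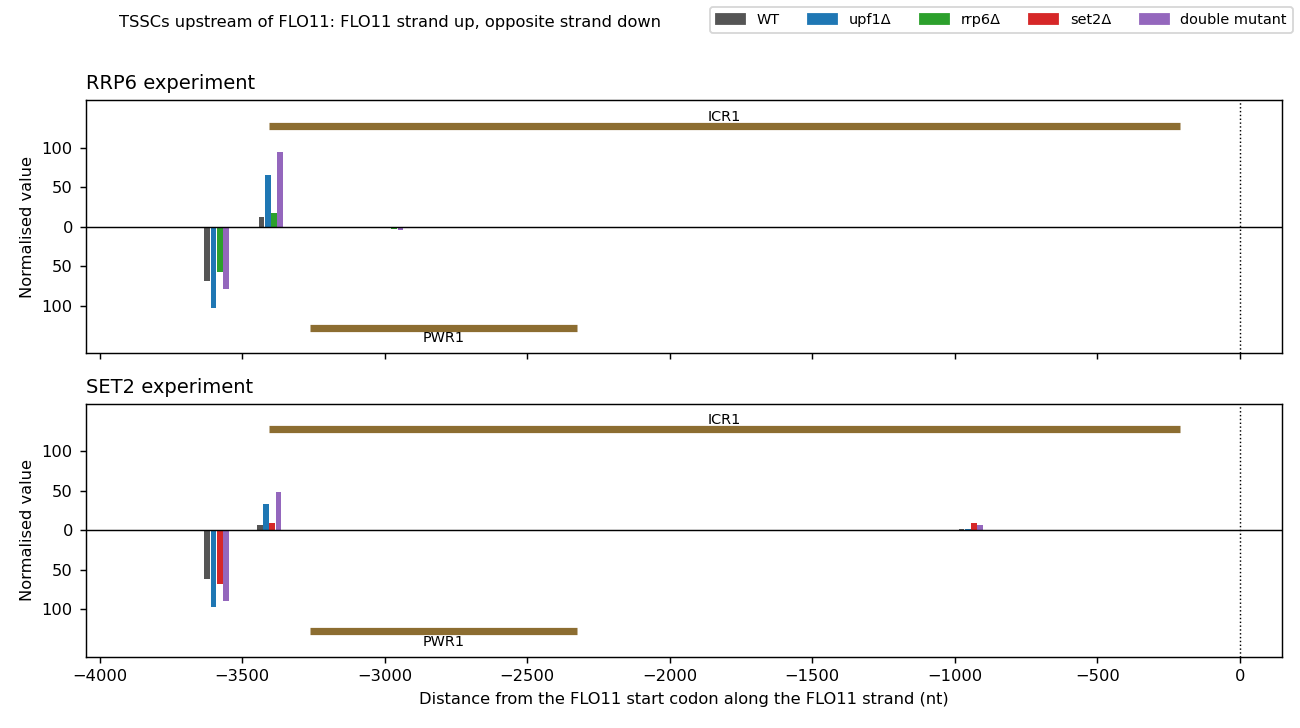
Normalised values of the TSSCs within 4000 nt upstream of *FLO11*, with the *FLO11* strand up and the opposite strand down, against distance from the start codon in nt; brown lines give annotated *ICR1* and *PWR1*. The *ICR1* start rises from 13 and 7 in wild-type to 65 and 33 in *upf1∆* and 94 and 48 in the double mutants, while *MRS1* stays between 57 and 102.

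*MRS1*, a gene for a splicing factor of mitochondrial introns, is transcribed away from *FLO11*, and its TSSC at 397216 to 397314 began 100 nt from the end of the *ICR1* TSSC. It had 69 in wild-type cells, 102 without Upf1, 57 without Rrp6 and 79 without both. The *SET2* experiment gave 62, 97, 68 and 90 for wild-type, *upf1∆*, *set2∆* and *upf1∆set2∆*. No comparison passed 2-fold in either experiment, in contrast to the *ICR1* start next to it. Its nearest neighbours in profile were YMR187C (0.13), YLR173W (0.19) and YPL066W (0.19), against a median of 1.05.

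Over all flocculin TSSCs, 7 of 13 stood above wild-type in *upf1∆* in the *RRP6* experiment, against 31.5% of all TSSCs. In the *SET2* experiment it was 12 of 23, against 26.9%. The median ratios were 1.14 and 1.32, against 0.49 and 0.35 over all TSSCs. The double mutant *upf1∆rrp6∆* had 7 of 13 TSSCs higher and 2 lower than wild-type, against 52.3% and 1.57% of all. The 2 lower ones were sense internal, a class in which 3.19% were lower. Compared with *rrp6∆*, this double mutant had 6 of 13 higher, against 34.8%.

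In *set2∆*, 11 of 23 were higher than in wild-type, against 27.7% of all TSSCs. Of these, 8 were among the 11 sense internal TSSCs, a class in which 51.9% of all TSSCs were higher, and none was of the mRNA class. In *upf1∆set2∆*, 20 of 23 were higher than in wild-type, against 56.2%. The same strain had 12 of 23 higher than *upf1∆*, against 34.9%, and 13 of 23 higher than *set2∆*, against 36.9%. Most of the 23 were sense internal or antisense, so the shares of these classes matter. Against *upf1∆*, 7 of 11 sense internal and 4 of 6 antisense TSSCs were higher, near the 64.1% of either class. Against *set2∆* it was 6 of 11 and 4 of 6, with class shares of 40.6% and 61.4%. All 11 sense internal TSSCs were higher in *upf1∆set2∆* than in wild-type, as were 78.4% of this class. Since 9 of the 23 were listed at 0 in wild-type, many of these calls rest on a few normalised reads. In both experiments the authors kept a TSSC where any of the clustered samples reached a read threshold. Those listed at 0 in wild-type thus likely entered through a mutant, and entry itself favours values above wild-type. Counts above wild-type, including all 11 sense internal TSSCs, are therefore no test on their own. The shares over all TSSCs and over the class come from the same entry rule. The comparisons within an experiment share samples and are not independent.

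The regulators of flocculin genes were examined at their own mRNA TSSCs, of which 17 of 18 genes had one. None was higher or lower in *upf1∆* in the *RRP6* experiment, where ratios ran from -0.69 to 0.76, and 1 was higher and 1 lower in the *SET2* experiment. Of all mRNA class TSSCs, 13.5% and 13.7% were higher and 0.624% and 0.685% lower in these comparisons. The top of both ranges was *FLO8*, with 83 in wild-type and 141 in *upf1∆* in the first experiment and 24 and 50 in the second, ratios of 0.76 and 1.03. The lower one was *ASH1*, which encodes a daughter-cell repressor, with 66 in wild-type and 26 in *upf1∆*, and in the *RRP6* experiment it had 155 and 96. *CTI6*, a gene of a subunit of the Rpd3 deacetylase complex, was the only one higher in *rrp6∆*, with 267 in wild-type and 557, as were 4.29% of all mRNA class TSSCs. *NRG1*, a repressor gene, was the only one higher in *set2∆*, with 50 and 106, as were 3.77% of all. *SFL1*, whose product represses *FLO11*, had 126 in wild-type and 100 in *upf1∆* in the *RRP6* experiment and 52 and 51 in the *SET2* experiment.

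Of 4 genes for mating adhesins, 3 had an mRNA TSSC. *AGA2*, for the binding subunit of a-agglutinin, had 638 in wild-type cells, 246 without Upf1, 652 without Rrp6 and 258 without both. The *SET2* experiment gave *AGA2* 601 in wild-type and 221 in *upf1∆*. It was lower without Upf1 by -1.37 and -1.44. *FIG2*, for a further mating adhesin, had 25 in wild-type and 53 in *upf1∆* in the *RRP6* experiment, but 13 and 18 in the *SET2* experiment. *SAG1*, for alpha-agglutinin, had 20 and 39, then 15 and 28.

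The deleted genes were checked at their mRNA TSSCs. *RRP6* had 86 in wild-type and 88 in *upf1∆*, against 2 in *rrp6∆* and 7 in *upf1∆rrp6∆*. *SET2* had 40 and 26 with the gene, against 6 and 13 without it. The fall from 26 in *upf1∆* to 13 in *upf1∆set2∆*, -0.95 on the log2 scale, did not pass the 2-fold limit. The *UPF1* TSSC (*NAM7* in the annotation) had 220 in wild-type and 176 in *upf1∆* in the *RRP6* experiment and 111 and 165 in the *SET2* experiment. It lies wholly upstream of the ORF, and its values did not check the deletion. *ACT1*, a gene for actin, ranged from 21902 to 25663 in the first experiment and from 14490 to 17697 in the second. The values of all TSSCs summed to between 4276051 and 4985459 per genotype in the *RRP6* experiment and between 3914205 and 4590115 in the *SET2* experiment.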

How the data were processed

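The score values used here are whole numbers of normalised reads per TSSC, deposited by the authors as 1 value per genotype. The authors removed duplicate reads by a random tag, mapped reads with bowtie2 to S288C R64 and *S. pombe*, clustered 5′-ends into TSSCs, filtered them on dependence on cap removal and on starting at a purine after a pyrimidine, and normalised with DESeq2 to reads just upstream of ORF ATGs. How the 3 libraries were combined, and what was done with reads that fit several places, is not given in the sources used here. The tables also hold the fold changes and p-values of the authors' own comparisons, which were not used. The 8 libraries for tests of cap removal and the 8 RNAseq libraries are not analysed here.

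The members and lists were chosen with earlier results of these data known. Ratios used a pseudocount of 1, and a call needed more than a 2-fold difference. TSSCs of the 2 experiments were matched where they shared 1 nt or more and the strand. The named TSSCs are those with a value of at least 10 in any genotype. ORFs, sequences and second copies of 50 nt were read from the R64 RefSeq reference, in which 5206 of 5231 and 5210 of 5234 ORFs with an mRNA TSSC have an ATG at the start the tables give. Alignments were global, in Biopython 1.88, with numpy 2.4.6 and pandas 2.3.3 in Python 3.11.15. Alternatives were pseudocounts of 0.1 and 5, keeping TSSCs whose mean reached 10, ratios relative to the median mRNA TSSC, leaving out TSSCs with second copies, and a reciprocal overlap of at least 50%. The counting was tested on simulated data. A library's depth is unknown here, so no counting interval was given.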

Additional observations from a re-analysis of the deposited data

How the results depend on the processing

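No paired analysis was possible because the tables hold 1 value per genotype and not per library. For the same reason no replicate could be left out in turn. Of 115 log2 ratios of named TSSCs, no called ratio changed sign under a pseudocount of 0.1 or 5 or relative to the mRNA median. The pseudocount of 5 ended 11 of 79 calls, that of 0.1 none and added 5, and the mRNA median ended 1 and added 1. The counts of TSSCs more than 2-fold higher moved as follows. With a mean of at least 10, leaving 8 TSSCs of the *SET2* experiment, they were 5 for *upf1∆*, 5 for *set2∆* and 7 for *upf1∆set2∆* against wild-type, and 5 and 7 for the double mutant against *upf1∆* and *set2∆*. With a pseudocount of 5 they were 2 in *rrp6∆*, 7 in *set2∆* and 12 in *upf1∆set2∆*. With the pseudocount of 0.1 and relative to the mRNA median, 1 TSSC became lower in *upf1∆* in the *SET2* experiment, and 1 in *upf1∆set2∆* against *upf1∆*, where none was lower before. Without TSSCs with a second copy over 50 nt (6 and 17 left), the counts were 3 for *upf1∆*, 1 for *rrp6∆*, 4 for *upf1∆rrp6∆* against wild-type, 1 against *upf1∆* and 3 against *rrp6∆*, 6 for *set2∆*, and 8 for *upf1∆set2∆* against *set2∆*, and the lower counts in the *RRP6* experiment were all 0. Over 38 nt, a length chosen after the data were seen (6 and 15 left), the *RRP6* counts were identical, and those of the *SET2* experiment were 6 for *upf1∆*, 5 for *set2∆*, and for the double mutant 12, 7 and 6 against wild-type, *upf1∆* and *set2∆*. In these cases fewer TSSCs entered by construction. Shares over all TSSCs are not given for any of these settings, so the counts cannot be read as an excess. With a mean of at least 10, 69.4% of sense internal and 67.4% of antisense TSSCs were higher in *set2∆* than in wild-type. For *upf1∆set2∆* the shares were 85.4% and 92.1%, and for *upf1∆* in the *SET2* experiment 32.3% and 56.6%. With a reciprocal overlap of at least 50% the SDs between experiments were 0.62, 0.52, 0.33, 0.23 and 0.16 from the lowest to the highest level.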

Other observations

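Some 5′-ends at the flocculin loci carry other names and were chosen here after their values were seen. SUT194, a stable unannotated transcript that begins just past the 3′-end of *FLO11* and runs antisense to it, had 4 in wild-type cells, 7 without Upf1, 43 without Rrp6 and 64 without both. An unnamed antisense TSSC beyond the 3′-end of *FLO9* (23714 to 23872 on chromosome I) had 17 in wild-type cells, 102 without Upf1, 24 without Rrp6 and 203 without both. At the same place in the *SET2* experiment an intergenic TSSC (23774 to 23817) carried 3 in wild-type, 11 in *upf1∆*, 3 in *set2∆* and 14 in *upf1∆set2∆*. Upstream of *FLO1*, on its strand, the main TSSC of XUT_1F-90 had 79 in wild-type cells, 487 without Upf1, 99 without Rrp6 and 493 without both, and 77, 451, 135 and 689 in wild-type, *upf1∆*, *set2∆* and *upf1∆set2∆*. The nearest sense TSSC upstream of *FLO1* was that of XUT_1F-93, 2756 nt from the ATG, with 12 in wild-type and 26 in *upf1∆* in the *RRP6* experiment and 10 and 26 in the *SET2* experiment. Between *SIR1* and *FLO10*, a TSSC on the opposite strand at 645263 to 645327 had 5 in wild-type cells, 35 without Upf1, 11 without Rrp6 and 34 without both. CUT442, a cryptic unstable transcript upstream of *FLO1* on the other strand, had 4 in wild-type cells, 6 without Upf1, 59 without Rrp6 and 120 without both.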
